A study of Mus musculus with 6 samples.

Results

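Voltage-gated calcium channels were followed here through 10 subunit genes in RNA sequencing of the adult mouse cerebellum. The set holds 6 genes for pore-forming alpha1 subunits (Cacna1a, Cacna1b, Cacna1c, Cacna1d, Cacna1e and Cacna1g) and 4 genes for the cytoplasmic beta subunits (Cacnb1, Cacnb2, Cacnb3 and Cacnb4). The genes were chosen by symbol, and each matched 1 row of a count table of 56748 genes. All 10 passed the filter on low counts, which kept 16859 genes. The animals were C57BL/6J mice aged 90 to 120 days, with 3 libraries in each group. Dams of the MeHg group drank water with 0.2 ppm methylmercury, an organic mercury compound, from the first day of pregnancy until birth. Dams of the control group drank water with 0 ppm. The labels name no dam or litter, so p-values measure the spread between these libraries, which may share a litter.

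A voltage-gated calcium channel opens when the membrane is depolarised and lets calcium into the cell, where it triggers transmitter release, shapes firing and signals to the nucleus. The alpha1 subunit forms the pore and sets the channel type, while a beta subunit binds the inner face of high-voltage-activated alpha1 subunits and helps bring them to the membrane. In the cerebellum the P/Q-type channel encoded by Cacna1a carries most calcium current of Purkinje cells and drives release from granule cell fibres, and loss of Cacna1a or Cacnb4 function causes ataxia in mice.

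The site where the 2 gene families meet is the alpha interaction domain, a short stretch of the linker between the first and second repeats of a high-voltage-activated alpha1 subunit. Its coding bases are shown for the 5 alpha1 genes of the set that pair with beta subunits. Each line gives 54 bases of the canonical GENCODE transcript, 5′ to 3′ on the coding strand, read from GRCm39. Capitals mark the codons of the tyrosine and the tryptophan that seat in the beta subunit.
Cacna1a: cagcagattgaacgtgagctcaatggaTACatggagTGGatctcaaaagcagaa
Cacna1b: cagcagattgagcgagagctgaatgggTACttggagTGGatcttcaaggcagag
Cacna1c: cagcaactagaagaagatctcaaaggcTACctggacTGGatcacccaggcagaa
Cacna1d: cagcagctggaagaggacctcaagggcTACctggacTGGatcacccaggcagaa
Cacna1e: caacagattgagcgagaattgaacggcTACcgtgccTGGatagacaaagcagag

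In Cacna1c (minus strand, chr6:118711867-118711920) and Cacna1d (minus strand, chr14:29864557-29864610) the stretch lies whole within coding exon 9. In the other 3 genes it crosses a splice junction, with 52 bases in exon 8 and 2 bases in exon 9. The exon 8 piece is at chr8:85262754-85262805 in Cacna1a (plus strand), at chr2:24609953-24610004 in Cacna1b (minus strand) and at chr1:154369048-154369099 in Cacna1e (minus strand). The L-type pair Cacna1c and Cacna1d shared 49 of the 54 bases, and Cacna1a shared 45 with Cacna1b but 36 with Cacna1e. The same pattern had no match in the coding sequence of the canonical Cacna1g transcript, which says only that this pattern is not in that sequence. Cacna1g encodes a low-voltage-activated channel, a class that does not need a beta subunit.

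Libraries held between 14116088 and 20303833 counts. Markers of the cerebellum were present in all 6, with summed granule cell markers between 6447 and 9246 CPM (the count of a gene relative to the scaled library size). Of the labelled sexes (female, female and male among controls; female, male and female in MeHg), that of Control 2 did not match its RNA: Xist was at 0.249 CPM and the Y-linked Ddx3y at 87.2 CPM in that library. MeHg 2 had the highest summed level of midbrain, thalamus and brainstem markers, 336 CPM against 101 to 106 in the other MeHg libraries and 38.1 to 104 in controls. Choroid plexus markers spanned 154 to 3121 CPM in controls and 2577 to 10205 CPM in MeHg. Calls of subunit genes that changed without MeHg 2 or Control 2 are given below.

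Per length of transcript, the channel genes fell into high and low tiers. FPKM, which divides by 1 deposited length per gene and by library size, averaged 46.1 ± 7.67 (SD, n = 6) for Cacna1a, 40.3 ± 8.97 for Cacnb4 and 38.1 ± 3.33 for Cacna1g, the T-type channel of Purkinje and deep nuclear neurons. The ranges of these 3 genes over the 6 libraries overlapped. Cacna1a nevertheless stood above Cacna1g within 6 of 6 libraries and above Cacnb4 within 6 of 6, while Cacnb4 stood above Cacna1g in 3 of 6.

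A gap separated these genes from the other 7, since the lowest Cacnb4 library (30.7 FPKM) was above the highest library of Cacnb3 (13.3 FPKM). Cacnb3 averaged 11.9 ± 1.32 FPKM (SD, n = 6), followed by the R-type gene Cacna1e at 8.99 ± 1.35 and the N-type gene Cacna1b at 7.86 ± 1.18. The ranges of Cacna1e and Cacna1b overlapped. Cacnb1 averaged 6.67 ± 1.47 FPKM and Cacna1d 4.37 ± 0.597. Cacna1c averaged 3.73 ± 0.583 and Cacnb2 3.42 ± 0.309. Among the beta genes alone, no neighbouring ranges overlapped in the order Cacnb4, Cacnb3, Cacnb1 and Cacnb2.

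**Figure D1:**
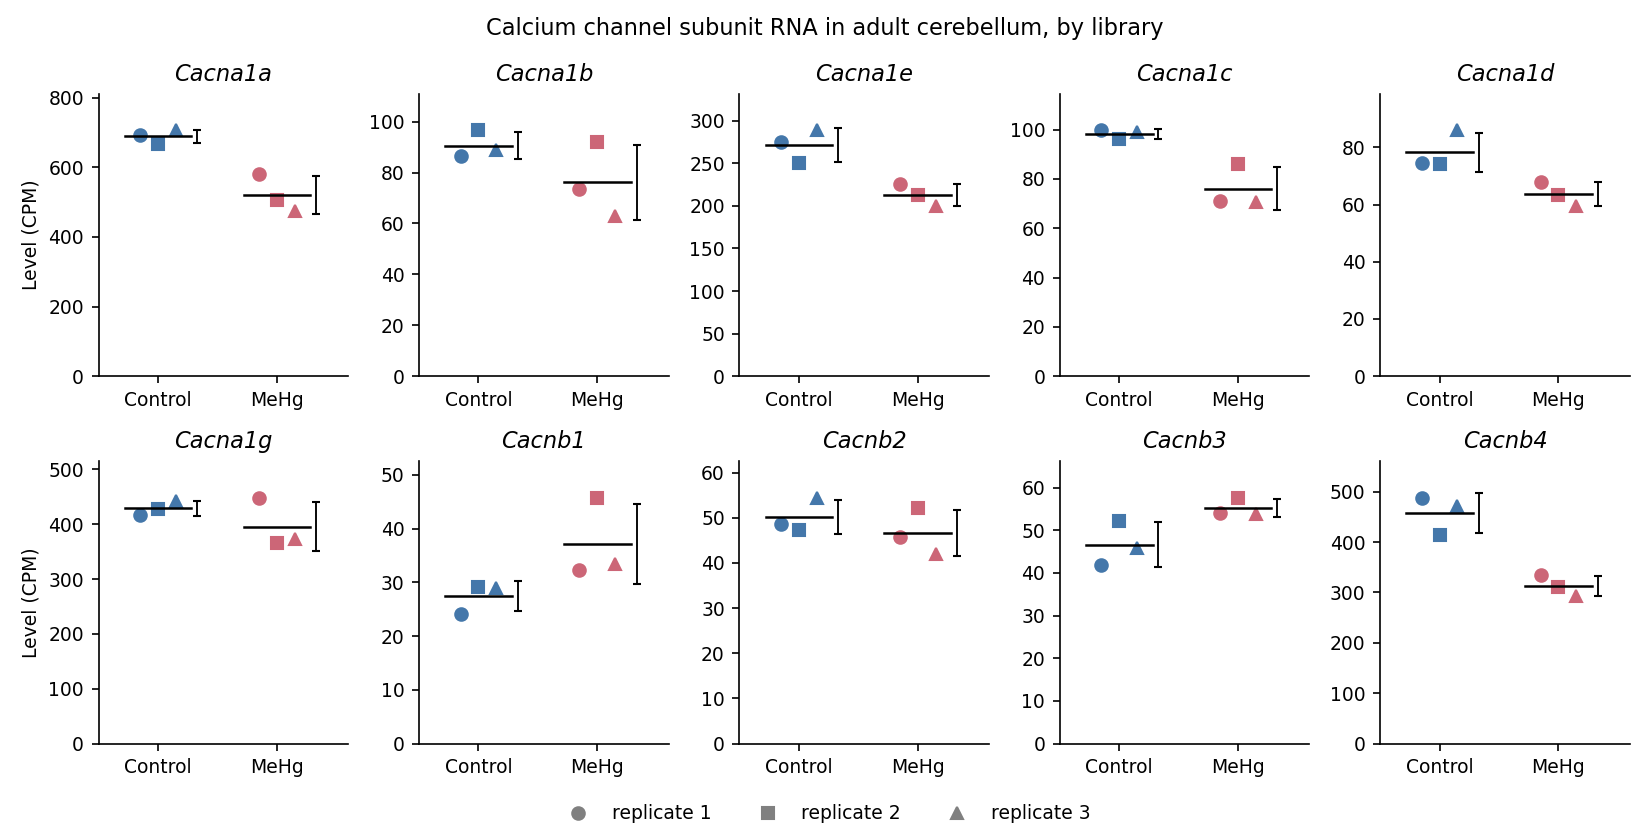
Levels of the 10 subunit genes in each library, in CPM, with a panel per gene and 1 point per library coloured by group. Black lines mark the group mean and bars the SD. The MeHg points of Cacna1a and Cacnb4 lie below all control points.

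After prenatal MeHg, 3 of the 10 genes were lower and none was higher. Cacnb4 had the largest difference, 31.7% below its control level by the fitted fold change, followed by Cacna1a and Cacna1e, the pore subunits of P/Q-type and R-type channels. Across all tested genes 1.79% were called lower and 0.575% higher, 2.36% in either direction (edgeR quasi-likelihood F test, Benjamini-Hochberg adjusted p under 0.05). Cacnb1 and Cacnb3 had positive differences and the other 8 genes negative ones. The median log2 difference of the 10 was -0.27, beside 0.01 over all tested genes. In 5 genes all MeHg libraries lay below all controls and in 2 genes above, where 15.5% and 13.9% of all tested genes did so, 29.4% in all. Since whole tissue was sequenced, fewer cells of a type and less RNA per cell cannot be told apart in any of these values.

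Among alpha1 genes, Cacna1a (chr8:85065268-85366875, plus strand) was at 693, 667 and 706 CPM in Control 1, 2 and 3. In MeHg 1, 2 and 3 it was at 582, 507 and 475 CPM. The groups did not overlap, and MeHg 1 lay closest to the controls. The mean went from 689 ± 19.8 CPM (SD, n = 3) to 521 ± 54.7 CPM, a log2 fold change of -0.40 (SE 0.09, 95% interval -0.59 to -0.21, edgeR adjusted p = 0.0490).

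Cacna1e (chr1:154266477-154760247) encodes the R-type pore, a channel of dendrites and nerve terminals. It was at 275, 249.9 and 289 CPM in the 3 controls and at 225, 212 and 199.9 CPM in the 3 MeHg libraries. Every MeHg library was below every control. Its log2 fold change was -0.35 (SE 0.07, 95% interval -0.52 to -0.18, edgeR adjusted p = 0.0495). Both alpha1 calls were therefore close to the threshold of 0.05.

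The L-type genes Cacna1c and Cacna1d, whose channels couple depolarisation to gene expression and pacemaking, did not pass. Cacna1c (chr6:118564201-119173851) was at 99.7, 96.1 and 99.1 CPM in controls and at 71.2, 86.2 and 70.7 CPM in MeHg. Controls lay within a few CPM of each other, and MeHg 2 was the MeHg library nearest to them. The log2 fold change of Cacna1c was -0.37 (95% interval -0.56 to -0.18, edgeR adjusted p = 0.0532). Without MeHg 2 it was -0.46 with an adjusted p of 0.00815 in the same test.

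Cacna1d (chr14:29761896-30213412) was at 74.5, 74.2 and 86.0 CPM in controls and at 67.8, 63.4 and 59.5 CPM in MeHg. The groups did not overlap here either, with Control 3 highest. Its log2 fold change was -0.30 (95% interval -0.48 to -0.11, edgeR adjusted p = 0.0820).

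Cacna1b and Cacna1g had overlapping groups. Cacna1b (chr2:24493899-24653164), the N-type pore of many nerve terminals, was at 86.5, 96.6 and 88.8 CPM in controls and at 73.5, 92.1 and 63.1 CPM in MeHg. MeHg 2 lay among the controls and the other MeHg libraries below them. Its log2 fold change was -0.25 (95% interval -0.53 to 0.03, edgeR adjusted p = 0.245). Without MeHg 2 the value was -0.40 with an adjusted p of 0.0264, so that 1 library decided this call. Without MeHg 3 it was -0.13 (adjusted p = 0.539). MeHg 2 was also the library with the most midbrain, thalamus and brainstem marker RNA, whose part in this value was not tested.

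Cacna1g (chr11:94299217-94365024) was at 416, 428 and 442 CPM in controls and at 448, 366 and 373 CPM in MeHg. MeHg 1 was the highest of all 6 libraries and the other MeHg libraries the lowest. The log2 fold change was -0.12 (95% interval -0.31 to 0.08, edgeR adjusted p = 0.448).

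Of the beta genes, Cacnb4 (chr2:52318332-52566843), the main cerebellar beta subunit, was at 488, 414 and 472 CPM in Control 1, 2 and 3. In the MeHg libraries it was at 334, 310.1 and 293 CPM. The lowest control, Control 2, was well above the highest MeHg library. The mean went from 458 ± 38.98 CPM (SD, n = 3) to 312 ± 20.4 CPM, a log2 fold change of -0.55 (SE 0.08, 95% interval -0.74 to -0.36, edgeR adjusted p = 0.0431). By p it ranked 30 among the 16859 tested genes.

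Cacnb1, the beta subunit best known from skeletal muscle and also present in brain, and Cacnb3, a widespread neuronal beta subunit, had the positive differences. Cacnb1 (chr11:97892334-97913860) was at 24.2, 29.1 and 28.9 CPM in controls and at 32.3, 45.7 and 33.4 CPM in MeHg. All MeHg libraries were above all controls, and MeHg 2 stood apart from the others. The log2 fold change was 0.44 (95% interval 0.11 to 0.77, edgeR adjusted p = 0.116), and without MeHg 2 it was 0.27 (adjusted p = 0.152).

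Cacnb3 (chr15:98528721-98542410) was at 41.7, 52.1 and 45.9 CPM in controls and at 54.0, 57.6 and 53.8 CPM in MeHg. The gap between the groups was narrow, with Control 2 just under the lowest MeHg library. Its log2 fold change was 0.24 (95% interval 0.03 to 0.45, edgeR adjusted p = 0.154).

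Cacnb2 (chr2:14607899-14992719), known as the main beta subunit of heart and retina, was at 48.6, 47.3 and 54.4 CPM in controls and at 45.8, 52.1 and 42.1 CPM in MeHg. The groups overlapped. Its log2 fold change was -0.10 (95% interval -0.32 to 0.12, edgeR adjusted p = 0.560).

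**Figure D2:**
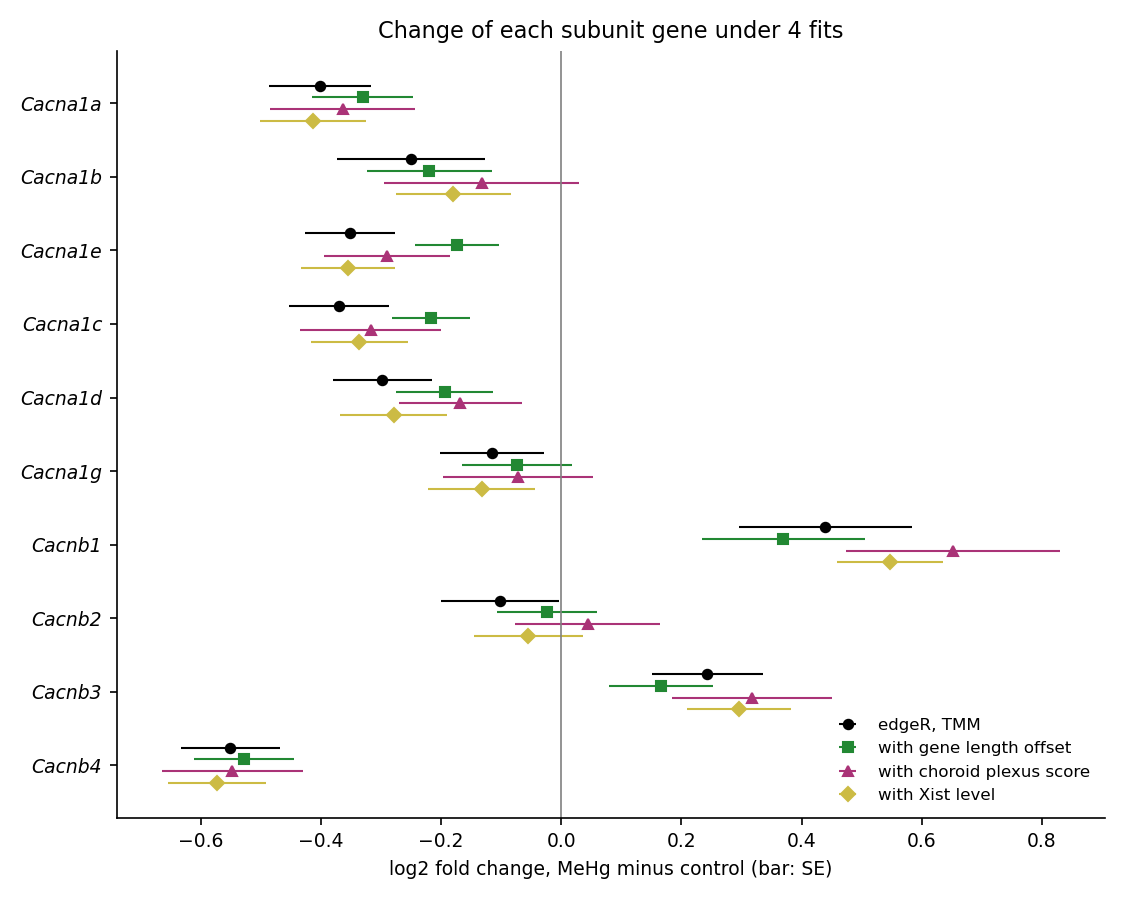
Log2 fold change of each subunit gene, MeHg minus control, with bars for the SE. Each gene is drawn for the main edgeR fit and for the fits with a gene length offset, the choroid plexus marker score and the Xist level. In the main fit Cacnb4, Cacna1a and Cacna1e are the genes called lower. Cacnb1 and Cacnb3 lie on the positive side of 0 there without passing the adjusted threshold.

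The count of 3 called genes depended on single libraries, while the signs of the 3 differences did not. It was 5 without MeHg 2 and 1 without Control 2, where Cacnb4 alone was called. It was 0 without any one of Control 1, Control 3, MeHg 1 or MeHg 3. In these last 4 fits the number of all tested genes called lower was 0 as well, and 718 without MeHg 2. For the fit without Control 2 that number is not given here, so its count of 1 stands without a comparison. The log2 fold change of Cacnb4 stayed between -0.62 and -0.50 when 1 library was left out, that of Cacna1a between -0.49 and -0.34 and that of Cacna1e between -0.41 and -0.31. DESeq2 called 5 lower (Cacnb4, Cacna1a, Cacna1e, Cacna1c and Cacna1d) and 1 higher, Cacnb1 (adjusted p = 0.0425), while over all tested genes it called 825 lower and 569 higher, against 301 and 97 by edgeR. With the Xist level as a covariate, which stands in for the sex seen in the RNA, edgeR called 4 lower and again Cacnb1 higher (log2 fold change 0.55, adjusted p = 0.0120). Over all tested genes that fit called 794 lower and 846 higher.

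Within each library the makeup of the beta subunit RNA differed between the groups, and a share of FPKM within a library does not depend on library scaling. The shares were not adjusted for the relation of fold change with gene length given below. Cacnb4 has 8963 bases and Cacnb2 13228, while Cacnb1 has 4529 and Cacnb3 4010. Cacnb4 made up 73.7%, 66.7% and 70.6% of the summed FPKM of the 4 beta genes in Control 1, 2 and 3. In MeHg 1, 2 and 3 it made up 60.8%, 54.9% and 57.7%. The shares did not overlap, and the group mean went from 70.3 ± 3.49% (SD, n = 3) to 57.8 ± 2.92%. No test was made of the shares, because the genes were chosen with earlier results known.

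Cacnb3 made up 14.1%, 18.8% and 15.3% of beta FPKM in controls and 22.0%, 22.8% and 23.7% in MeHg. Cacnb1 made up 7.23%, 9.30% and 8.55% in controls and 11.6%, 16.03% and 13.0% in MeHg. Neither pair of groups overlapped. The share of Cacnb2 had means of 5.22% in controls and 5.83% in MeHg, and its groups did not overlap either, by a narrow gap (5.51% in Control 3, 5.61% in MeHg 3). Per FPKM of Cacnb3 there were 5.23, 3.55 and 4.61 FPKM of Cacnb4 in the controls and 2.77, 2.41 and 2.44 in the MeHg libraries, so the dominance of Cacnb4 was smaller in each MeHg library than in any control.

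In sum the 4 beta genes went from 68.2 ± 2.90 FPKM (SD, n = 3) to 56.3 ± 2.69 FPKM. The 3 genes other than Cacnb4 summed to 18.3, 21.6 and 20.6 FPKM in controls and to 22.5, 26.3 and 22.5 FPKM in MeHg. This sum was higher in every MeHg library than in any control, while the total with Cacnb4 was lower. The 6 alpha1 genes summed to 120.0 ± 3.23 FPKM in controls and 98.2 ± 8.90 FPKM in MeHg. The ratio of summed beta to summed high-voltage alpha1 FPKM was 0.849 ± 0.0162 in controls and 0.915 ± 0.0478 in MeHg, with overlapping ranges.

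Among the alpha1 genes the P/Q-type pore had a smaller share and the T-type pore a larger one in MeHg, again without a test. Cacna1a made up 44.5%, 43.3% and 43.6% of alpha1 FPKM in controls and 40.9%, 39.9% and 39.9% in MeHg. Cacna1g made up 32.5%, 33.7% and 33.2% in controls and 38.3%, 35.1% and 38.0% in MeHg. Neither pair of groups overlapped, and the other 4 alpha1 genes had overlapping shares. The ratio of Cacna1a to Cacna1g FPKM was 1.32 ± 0.0436 in controls and 1.09 ± 0.0465 in MeHg.

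**Figure D3:**
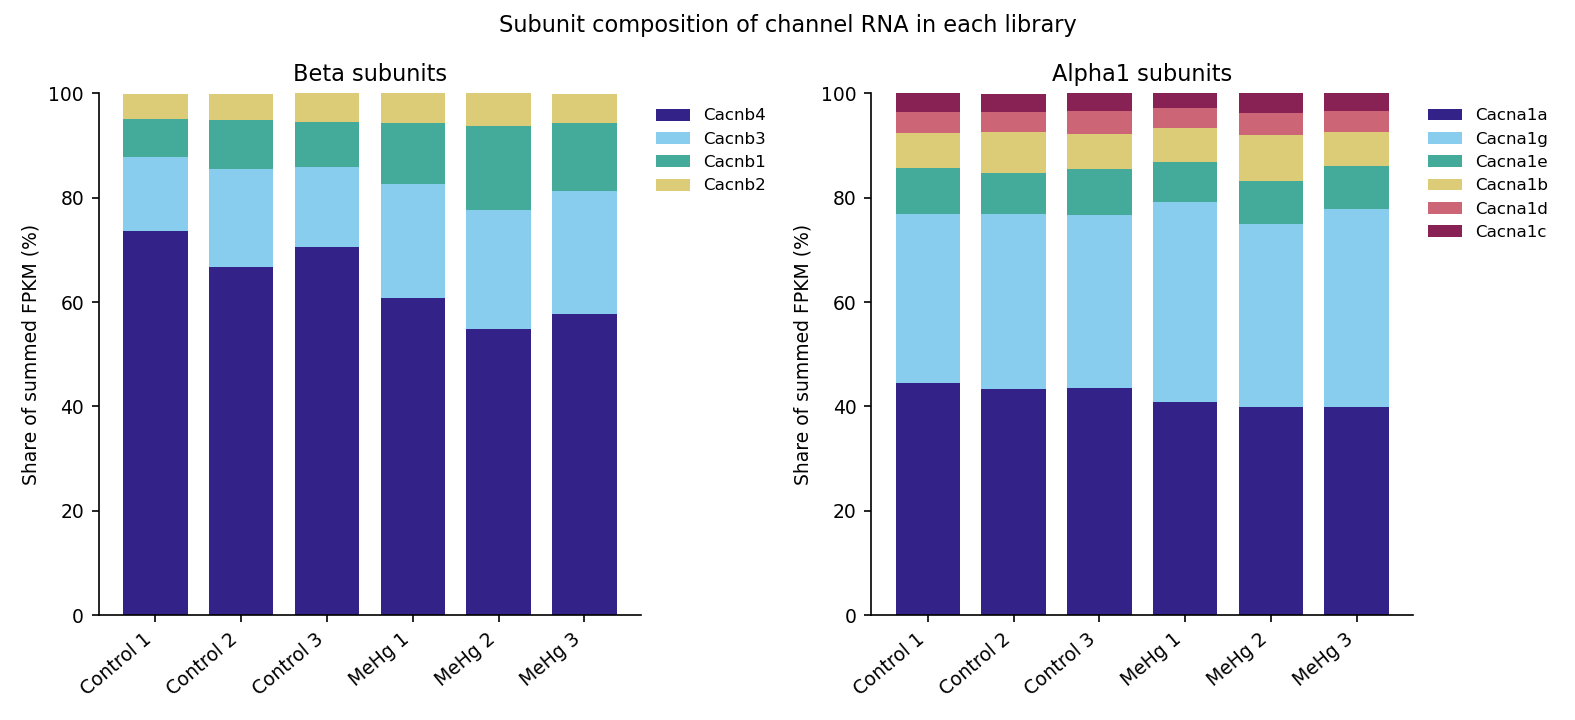
Makeup of subunit RNA in each library, as percent of the summed FPKM of the 4 beta genes and of the 6 alpha1 genes. The Cacnb4 part of the beta column is smaller in each MeHg library (54.9% to 60.8%) than in any control (66.7% to 73.7%).

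Markers of cerebellar neurons were read beside the channel genes. Of 11 molecular layer and Golgi interneuron markers 0 were called in either direction. Their summed level was 2073 to 2101 CPM in controls and 1996 to 2081 CPM in MeHg. Of 5 unipolar brush cell markers 1 was called lower (Plcb4) and 0 higher. The summed level of that list was 570 to 664 CPM in controls and 441 to 536 CPM in MeHg. Of 14 granule cell markers, all tested, 5 were called lower (Gabra6, Fat2, Etv1, Gabrd and Zic1) and 0 higher. Across all tested genes 1.79% were called lower and 0.575% higher. The summed level of the granule cell markers was 8655 to 9246 CPM in controls and 6447 to 7462 CPM in MeHg. Their mean log2 level differed by -0.35 between the groups. Cacnb4 minus that mean was -0.24, -0.37 and -0.20 (log2) in controls and -0.49, -0.36 and -0.56 in MeHg. The groups overlapped on this scale, with a difference of -0.20. For Cacna1a the corresponding difference was -0.06 and for Cacna1e it was 0.0006, again with overlap in each.

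Against the 13 Purkinje cell markers, of which 0 were called in either direction and whose summed level was 9755 to 10702 CPM in controls and 7432 to 9711 CPM in MeHg, Cacnb4 stood at 0.45, 0.30 and 0.37 in controls. In MeHg it stood at -0.08, 0.29 and -0.16. These groups did not overlap, although MeHg 2 nearly reached Control 2, and their difference was -0.36. On the same scale the differences of Cacna1a and Cacna1e were -0.21 and -0.16, with overlapping groups in each. Relative to granule cell markers Cacnb1, Cacnb3 and Cacna1g were higher in every MeHg library than in any control, with differences of 0.78, 0.60 and 0.23. Summed oligodendrocyte markers were at 5822 to 6644 CPM in controls and 6648 to 8799 CPM in MeHg, and of 10 tested 0 were called. Of 7 tested ependymal markers 2 were called higher, and the summed level of that list was 16.9 to 25.3 CPM in controls and 38.6 to 62.3 CPM in MeHg. Of 8 endothelial markers 1 was called higher (Flt1), and the summed level of that list was 157 to 177 CPM in controls and 183 to 263 CPM in MeHg. Beside these counts, 0.575% of all tested genes were called higher. The part of these cell types in the channel gene values was not tested.

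Fold changes also differed by gene length. When tested genes were cut into 4 classes of about equal size by deposited length, the median log2 fold change was 0.10, 0.04, -0.01 and -0.09 from the shortest to the longest class. In the longest class 5.88% of genes were called lower, and in the shortest 0.119%. That class, from 6480 bases up, held 8 of the 10 subunit genes, all those with a negative difference. Cacnb1 (4529 bases) and Cacnb3 (4010 bases) are the short genes of the set. The median centred log2 CPM of the longest class was 0.05, 0.05 and 0.06 in Control 1, 2 and 3 and -0.04, -0.01 and -0.10 in MeHg 1, 2 and 3, so MeHg 3, the lowest library for Cacnb4, Cacna1a and Cacna1e, was lowest here too. What underlies this relation with length was not tested.

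With a length offset fitted in each library, edgeR called 0 of all tested genes in either direction, at an adjusted p under 0.05, and so 0 of the subunit genes. Cacnb4 kept most of its difference, at -0.53 with an adjusted p of 0.0502. Cacna1a was at -0.33 (adjusted p = 0.0784), and Cacna1e, the longest at 25228 bases, was at -0.17 (adjusted p = 0.183). In that fit Cacnb1 was at 0.37 (adjusted p = 0.153). With the choroid plexus marker score as a covariate, again 0 of all tested genes were called, and Cacnb4 was at -0.55 (edgeR adjusted p = 0.375). The median log2 fold change of the 10 subunit genes was -0.15 in that fit, against -0.27 in the main fit. In it 7 of the differences were negative and 3 positive.

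**Figure D4:**
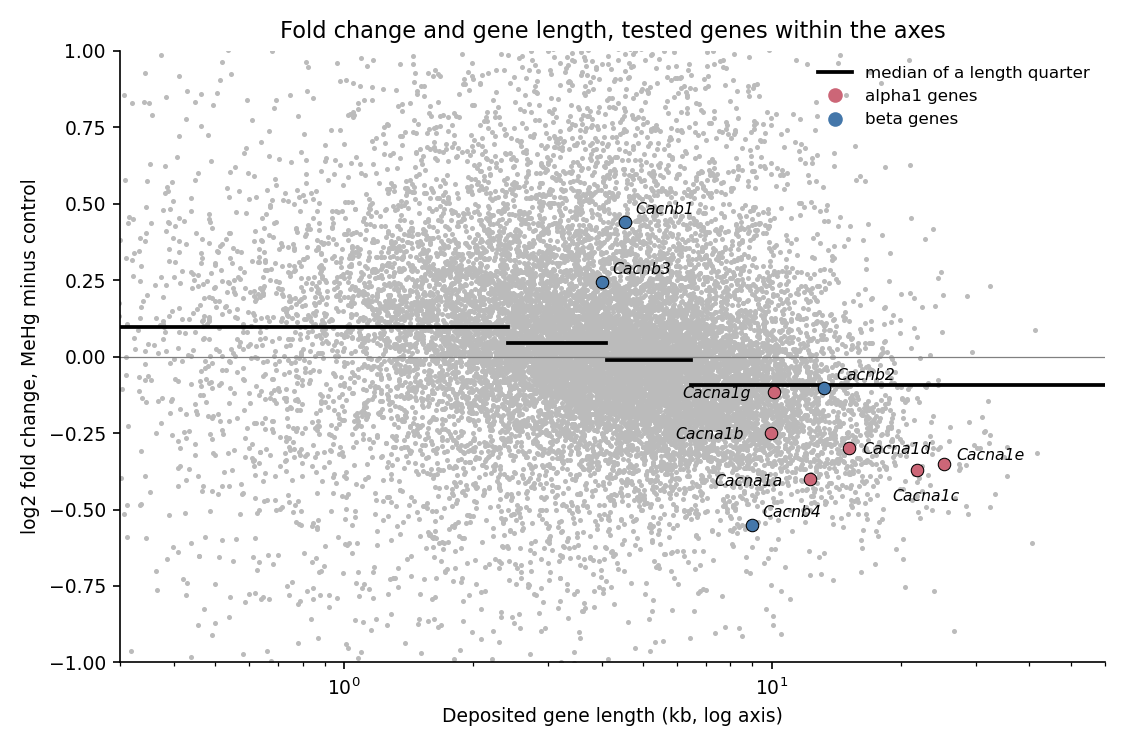
Log2 fold change, MeHg minus control, against deposited gene length in kilobases on a log axis, with 1 grey point per tested gene (those within the axes are drawn) and bars at the median of each of 4 length classes. The subunit genes with negative differences lie in the longest class, and Cacnb1 and Cacnb3 lie in shorter ones.

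A further 16 genes, for other pores, alpha2delta subunits and the gamma family, were read beside the 10. Of these, 13 were tested and 0 were called in either direction by edgeR. At an unadjusted p under 0.05 in the same edgeR test Cacna1i was lower and Cacng3 higher. Such a p was reached by 4132 of the 16859 tested genes, in either direction. DESeq2 called 0 lower and 1 higher, Cacng3 (adjusted p = 0.0347). Without MeHg 2 edgeR called 1 lower, Cacna1i, and 0 higher. With the Xist covariate it called 0 lower and 2 higher, Cacna1h (log2 fold change 1.14, adjusted p = 0.0235) and Cacng3 (0.88, adjusted p = 0.0157). Of the pore genes, the T-type Cacna1i went from 115 ± 4.37 CPM (SD, n = 3) to 97.0 ± 15.6 CPM, a log2 fold change of -0.25 (adjusted p = 0.189), and without MeHg 2 the value was -0.37 (adjusted p = 0.0219). The T-type Cacna1h was scarce, with 7.32 ± 4.02 CPM in controls and 12.8 ± 5.25 CPM in MeHg. Cacna1s, the skeletal muscle pore, was at 1.24 ± 0.417 CPM and 1.49 ± 0.510 CPM.

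The alpha2delta subunits sit outside the membrane and promote channel trafficking. Cacna2d2, whose loss causes ataxia in mice, was the most abundant at 23.6 FPKM. It was at 203, 198 and 208 CPM in controls and at 209.5, 190.0 and 195 CPM in MeHg. The groups overlapped, and the log2 fold change was -0.03 (95% interval -0.17 to 0.10). Cacna2d1, Cacna2d3 and Cacna2d4 had log2 fold changes of 0.01, -0.05 and 0.22, with overlapping groups in each.

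Gamma family genes encode mostly partners of AMPA receptors. Cacng7 was the most abundant at 129.9 FPKM and had a log2 fold change of -0.12 (edgeR adjusted p = 0.311). Cacng2, the stargazin gene, had one of -0.05 (95% interval -0.21 to 0.12). Cacng3 was at 6.24, 8.98 and 7.47 CPM in controls and at 9.83, 17.2 and 10.6 CPM in MeHg, a log2 fold change of 0.73 (adjusted p = 0.112). All MeHg libraries were above the controls, and MeHg 2 was highest. Cacng4, Cacng5 and Cacng8 had log2 fold changes of 0.09, -0.06 and 0.31, with overlapping groups.

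**Figure D5:**
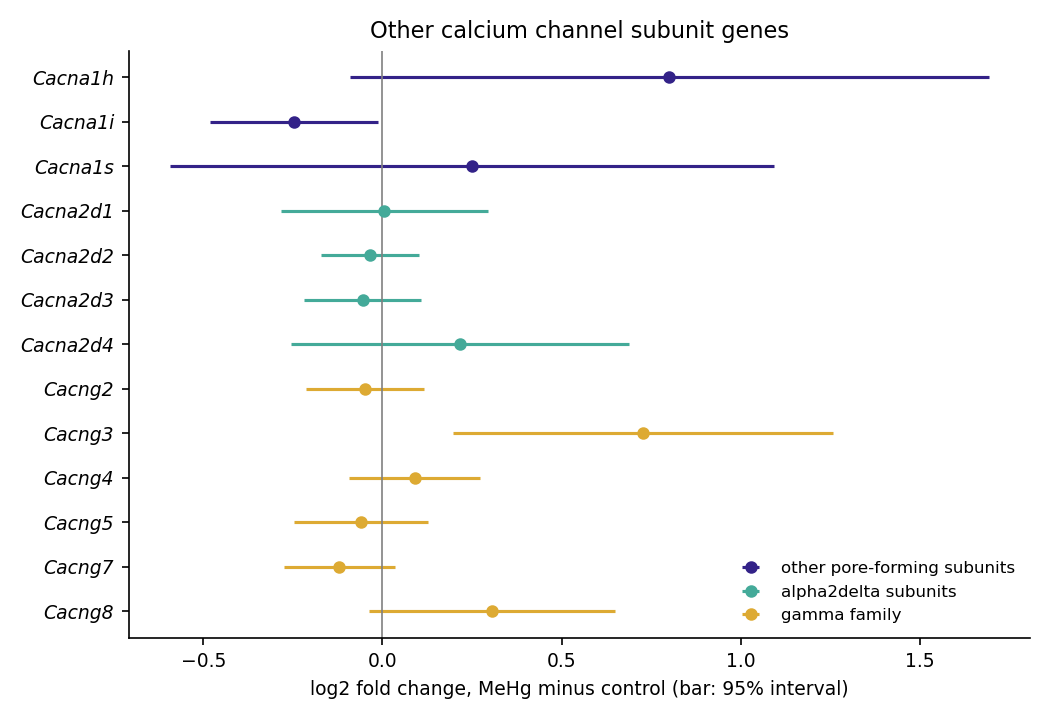
Log2 fold changes, MeHg minus control, with 95% intervals for the 13 tested genes of the other subunits. The alpha2delta genes Cacna2d1, Cacna2d2 and Cacna2d3 lie near 0, and Cacna1h and Cacng3 have wide intervals on the positive side.

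Around the release site, where P/Q-type channels are anchored, 4 of 21 scaffold and fusion genes were called lower and 0 higher. Rims1, whose protein tethers the channels to vesicles, was at 318, 279.9 and 289.6 CPM in controls and at 212, 228 and 191 CPM in MeHg. The groups did not overlap, and the log2 fold change was -0.49 (SE 0.08, edgeR adjusted p = 0.0431). The active zone scaffolds Erc1, Bsn and Pclo had log2 fold changes of -0.62, -0.52 and -0.44 at the same adjusted p. The list had a median of -0.12. In 11 of its genes all MeHg libraries lay below all controls and in 3 (Rimbp2, Vamp1 and Cplx1) above, where 15.5% and 13.9% of all tested genes did so and 1.79% were called lower. Without any one of Control 1, Control 3, MeHg 1 or MeHg 3, 0 of its genes were called, without Control 2 there were 3 and without MeHg 2 there were 6. The numbers over all tested genes in these fits stand above, except for the fit without Control 2, where none is given. With the length offset 0 were called, as over all tested genes.

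Of 21 genes for channel regulators 19 were tested, with 1 called lower and 1 higher. Of all tested genes 1.79% were called lower and 0.575% higher. Camk2d, a calmodulin-dependent kinase that acts on L-type channels, was at 268, 272 and 267 CPM in controls and at 211, 213 and 205 CPM in MeHg. Its groups were far apart for their spread, with a log2 fold change of -0.36 (SE 0.05, edgeR adjusted p = 0.0431). Stac2, an adaptor of L-type channels, was at 37.7, 43.9 and 40.5 CPM in controls and at 57.0, 56.5 and 50.6 CPM in MeHg. Stac2 thus rose by 0.42 on the log2 scale (SE 0.09, edgeR adjusted p = 0.0463). Both calls were lost when any one library other than MeHg 2 was left out.

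Calcium-activated potassium channels take their calcium from these channels in Purkinje cells. Of 6 tested genes 0 were called by edgeR. Those with the smallest p were Kcnma1, the large-conductance channel, with a log2 fold change of -0.22 (adjusted p = 0.116), and Kcnn1, a small-conductance channel, with 0.46 (adjusted p = 0.131). Kcnn2, another small-conductance channel, had nearly the same p as Kcnn1 and is named after its value was seen, with -0.35 (adjusted p = 0.131). All MeHg libraries lay below all controls for Kcnma1 and Kcnn2 and above them for Kcnn1. Of all tested genes 15.5% lay below and 13.9% above in this way.

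The genes most like Cacnb4 in pattern were found by the root mean square distance of log2 CPM, centred per gene, over the 6 libraries. Among 10244 compared genes these were Fgd4 (distance 0.0161), Klhl34 (0.0396), Cadps2 (0.0399), Reln (0.0419) and Tll1 (0.0430), where the median over all compared genes was 0.292. Fgd4 went from 79.7 to 53.7 CPM and Reln, which encodes the secreted protein reelin, from 420 to 296 CPM. The nearest to Cacna1a were Mpp3 (distance 0.0224), Cnot3 (0.0251), Kdm7a (0.0256), Mical2 (0.0293) and Dgkd (0.0351), with a median of 0.231. Dgkd went from 307 to 231 CPM, against 689 to 521 CPM for Cacna1a.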

How the data were processed

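Whole-number raw counts per gene were deposited by the authors, with no normalisation, beside deposited FPKM values. The submitters' processing notes name mm39 and DESeq2. Aligner, counter, annotation and strand setting were not given in the sources used here. Reads of overlapping antisense genes may therefore be mixed. Libraries were grouped by the labelled treatment. In R 4.3.3, edgeR 4.0.16 filtered genes with filterByExpr, scaled libraries by TMM and tested treatment alone by its quasi-likelihood F test. Benjamini-Hochberg adjustment ran over 16859 genes, with calls at an adjusted p under 0.05. The SE is the absolute log2 fold change divided by the square root of F, and the scripts were tested on simulated data. Log2 CPM used a prior count of 2. Alpha interaction domains were found by their conserved pattern in GENCODE coding sequences. DESeq2 1.42.0, limma 3.58.1 and other filters, scalings and covariates served as alternatives. Length offsets were loess curves of span 0.3. The subunit genes and all gene lists were chosen with earlier results of these data known. All subunit genes that passed the filter were named. From the regulator, release site and potassium channel lists, called genes were named or, where none was called, the 2 with the smallest p. The 5 genes nearest in pattern to Cacnb4 and to Cacna1a with at least 10 CPM were named as well. Libraries were fitted as unpaired, and whether replicate numbers pair them could not be settled. Libraries of a group differed by more than sampling noise.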

Additional observations from a re-analysis of the deposited data

How the results depend on the processing

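Each group had 3 libraries, the lowest count of a subunit gene in any library was 402 (Cacnb1), and effects of depth were not tested. The members called lower numbered 3 and became 1 with DESeq2 size factors, with upper-quartile scaling and with a filter of 1 CPM in 3 libraries. They became 5 with DESeq2, at an adjusted p under 0.1 and without both libraries numbered 2, and 6 with no filter. They became 0 with limma on log2 FPKM (1 or 0.1 added), with the choroid plexus score as a covariate and with the gene length offset. Over all tested genes, those called lower numbered 301, and 282, 119 and 267 with DESeq2 size factors, upper-quartile scaling and the 1 CPM filter. Their number was 825 with DESeq2 and 1178 with no filter. It was 0 with limma on log2 FPKM, with the choroid plexus score and with the length offset. No such number is given here for an adjusted p under 0.1 or without both libraries numbered 2. The member counts of those settings therefore stand without a comparison. Leaving out 1 library gave 0 to 5 members called lower. The members called higher numbered 0 and became 1 with no filter, with DESeq2, with the Xist covariate and without both libraries numbered 2. Numbers of all tested genes called higher are given above for DESeq2 and the Xist covariate only, so the other counts stand without a comparison. Correlations of deviations were 0.19, 0.35 and -0.24 for equal replicate numbers and -0.43 to 0.36 for unequal ones. So few values cannot settle whether the numbers pair the libraries. The fit with a replicate block called 3 members lower and 0 higher, and 390 of all tested genes lower. A genomic span offset, added after the data were seen, called 2 members and 563 of all tested genes lower. The Cacna1a share difference was -3.55 percentage points, -2.89 by counts and -3.89 to -3.19 when 1 library was left out, and that of Cacnb4 was -12.5, and -14.3 to -10.9. Signs reversed for Cacnb2 (0.044) and Cacna2d3 (0.0095) with the choroid plexus covariate, for Cacna1s with it (-0.30) and with Xist (-0.018), and for Cacna2d2 with upper-quartile scaling (0.0040). For Cacna2d1 they reversed with voom (-0.0057), log2 FPKM plus 1 (-0.010) or 0.1 (-0.013), the replicate block (-0.0024), labelled sex (-0.0098), the span offset (-0.026) and without both libraries numbered 2 (-0.062), and for Cacng2 in the last (0.023). Leaving out 1 library gave -0.15 to 0.091 for Cacna2d1, -0.077 to 0.0039 for Cacna2d2, -0.11 to 0.031 for Cacng2 and -0.11 to 0.024 for Cacng5. The cause was not tested.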
